A study of Gallus gallus with 6 samples.

Results

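Expression of 8 genes that handle thyroid hormone, or pass on its signal, was examined in the ileum of male Taiping chickens. The genes are IYD, the deiodinases DIO1, DIO2 and DIO3, the receptors THRA and THRB, the transporter SLC16A10 and the transcription factor KLF9. They were found by symbol in a table of 17623 genes. Rows for 7 of the 8 were analysed, each symbol having 1 row, and DIO3 was not analysed here. The list was selected on the FPKM values of both groups: IYD had stood out for its difference in earlier results of these data, and the other genes were added as its pathway. Differences between the groups are therefore given as a description, with no test.

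The birds were 2 months old. The probiotic group (MP, 3 libraries) had 2 mL of a probiotic per litre of drinking water on top of the basal diet of corn and soybean, which both groups ate. The control group (CT, 3 libraries) had the basal diet alone. The labels do not name the strains of the probiotic, nor do they say whether a library came from 1 bird or from several. The authors deposited 1 mean per gene and group, both as FPKM (fragments scaled by the authors for transcript length and library depth) and as an estimated count. Means alone give no standard deviation, so the differences carry no p-value and could not be set against the spread between libraries. The mean counts summed to 15928865 per library in MP and 17150865 in CT. Enterocyte markers were abundant in both groups: the epithelial adhesion gene EPCAM had FPKM 1032 in MP and 1016 in CT, and FABP6, which binds bile acids inside ileal enterocytes, had 2669 and 4081.

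Thyroid hormone reaches the intestine mainly as thyroxine, which enters cells through membrane transporters. Outer ring deiodination turns it into triiodothyronine, the form that binds the nuclear receptors, and inner ring deiodination inactivates it. The deiodinases are selenoproteins. The receptors sit on DNA as partners of the retinoid X receptors, hold corepressors without hormone and coactivators with it, and in frog tadpoles they drive the remodelling of the gut at metamorphosis. IYD is a different kind of enzyme: it is a flavoprotein that takes iodide off mono- and diiodotyrosine, the by-products of hormone synthesis in the thyroid, so that the iodide can be used again.

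In the MP mean, IYD and DIO1, both enzymes that remove iodine, stood above CT, whereas the amino acid and hormone transporter SLC16A10 stood below it. IYD was 5.13-fold and DIO1 1.87-fold of the CT level in FPKM. DIO2 was at 1.02-fold and THRA at 0.879-fold. Of the 6 genes with a mean FPKM of at least 1 over both groups, 2 (IYD and DIO1) were higher in MP by 1.5-fold or more on the log2(FPKM + 1) scale and 0 were lower by as much. Of all 12633 genes at that minimum, 2.68% were higher and 1.81% lower by 1.5-fold or more. At 2-fold, 1 of the 6 (IYD) was higher and 0 lower, beside 0.784% and 0.317% of all genes. The share for the 6 genes holds IYD, which was picked for this contrast, and nothing is read from it.

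**Figure D1:**
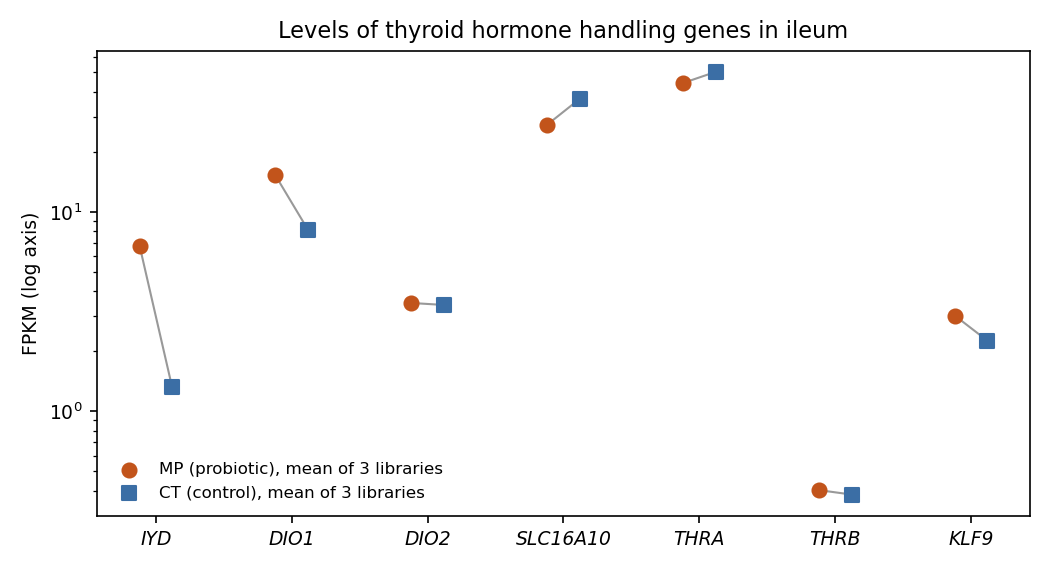
Level of each gene in FPKM on a log axis, as the authors' mean of 3 libraries, with the probiotic group (MP, circles) left of the control group (CT, squares). IYD lies at 6.76 in MP and 1.32 in CT, DIO1 at 15.2 and 8.11, while the DIO2 and THRB points lie almost level.

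The order of the levels shows where these genes stand in the tissue. In MP it ran THRA, SLC16A10, DIO1, IYD, DIO2, KLF9 and THRB. In CT it was the same except for IYD, which stood behind DIO2 and KLF9 as number 6 of the 7 and not as number 4. Since no spread between libraries is known, it cannot be said which neighbours in this order differ beyond it.

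IYD (ENSGALG00000012392) had FPKM 6.76 in MP and 1.32 in CT. The mean count was 195.7 reads per library in MP and 41.0 in CT, or 587 and 123 over the 3 libraries of each group. The gene thus lay near the middle of the table in MP, above 50.9% of all genes, and above 30.4% of them in CT. The difference was 1.74 on the log2(FPKM + 1) scale, rank 16 from the top among 12633 genes. Scaled to depth, the count ratio was 5.14 with an exact 95% interval of 4.22 to 6.29. This interval covers counting error only; variation between birds is not in it.

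The other analysed genes of hormone synthesis in the thyroid follicle lay below a mean of 1 FPKM, and IYD was the only gene of that list to reach it. Of 13 listed genes, 7 were analysed and 6 of those lay below the minimum. The thyrotropin receptor (TSHR) was listed at 0 in MP and in CT. The sodium iodide symporter SLC5A5 had FPKM 0.107 in MP and 0.010 in CT, from 10 and 1 reads. DUOX2, the oxidase that supplies hydrogen peroxide and is also known from gut epithelium, had 0.057 in MP and 0.027 in CT. The 4 analysed markers of thyroid follicles summed to FPKM 0.107 in MP and 0.060 in CT.

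Markers of the upper small intestine were also higher in MP. With 1 mean per group, whether they vary together with IYD cannot be seen. Of 6 such genes 5 were analysed, and their summed FPKM was 147 in MP and 104 in CT. All 4 at the minimum were higher in MP, as were 37.5% of all genes. Of these 4 genes 2 were higher by at least 1.5-fold, beside 2.68% of all genes. GIP, a hormone of the upper intestine, had 22.5 in MP and 6.12 in CT. GATA4, a transcription factor of that region, had 2.31 and 0.423. At its CT level GATA4 could reach the minimum only by being higher in MP. Its place in both counts thus follows from the filter, and nothing is read from it. Below 1.5-fold were CCK, with 67.3 in MP and 56.0 in CT, and SCT, with 53.9 and 41.4. ONECUT2, below the minimum, had 1.23 in MP and 0.260 in CT. The position along the ileum is not given in the labels, and the part of these genes in the IYD difference was not tested. In bulk tissue, more cells of a type and more RNA per cell cannot be told apart. Of liver, which also expresses IYD in mammals, 7 of 8 marker genes lay below the minimum, with albumin (ALB) at 0.170 in MP and 0.320 in CT, and AHSG listed at 0 in both. Others of these low genes were higher in MP: FGB, a fibrinogen chain, had 0.580 in MP and 0.277 in CT (62 and 32 reads, a ratio of 2.09 with a counting interval of 1.34 to 3.30), SERPINC1 had 0.287 and 0.233, FGA 0.073 and 0.040, and APOH 0.050 and 0.013. The part of liver genes in the IYD difference was not tested. The exception to the low levels was transferrin (TF), at 20.7 in MP and 25.9 in CT.

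In the RefSeq gene order of assembly GRCg7b, the difference of IYD was not shared by the genes beside it. On one side lie PPP1R14C, LRP11 and PCMT1, whose differences were -0.39, -0.23 and -0.14 on the log2(FPKM + 1) scale. On the other side lie PLEKHG1 at 0.19, MTHFD1L at -0.56 and AKAP12 at -0.51. PLEKHG1 had FPKM 11.1 in MP and 9.62 in CT, and 5 of the 6 neighbours were lower in MP, as were 62.4% of all genes. The neighbours of DIO1 were between the 1.5-fold limits on this scale, from -0.33 for GLIS1 to 0.29 for LDLRAD1. Both of these lay below a mean of 1 FPKM, where the scale understates differences. GLIS1 had FPKM 0.293 in MP and 0.620 in CT, and LDLRAD1 had 0.673 and 0.370. As a ratio of FPKM, GLIS1 differed by a larger factor than DIO1, in the opposite direction. LDLRAD1 differed by nearly the same factor as DIO1, in the same direction.

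**Figure D2:**
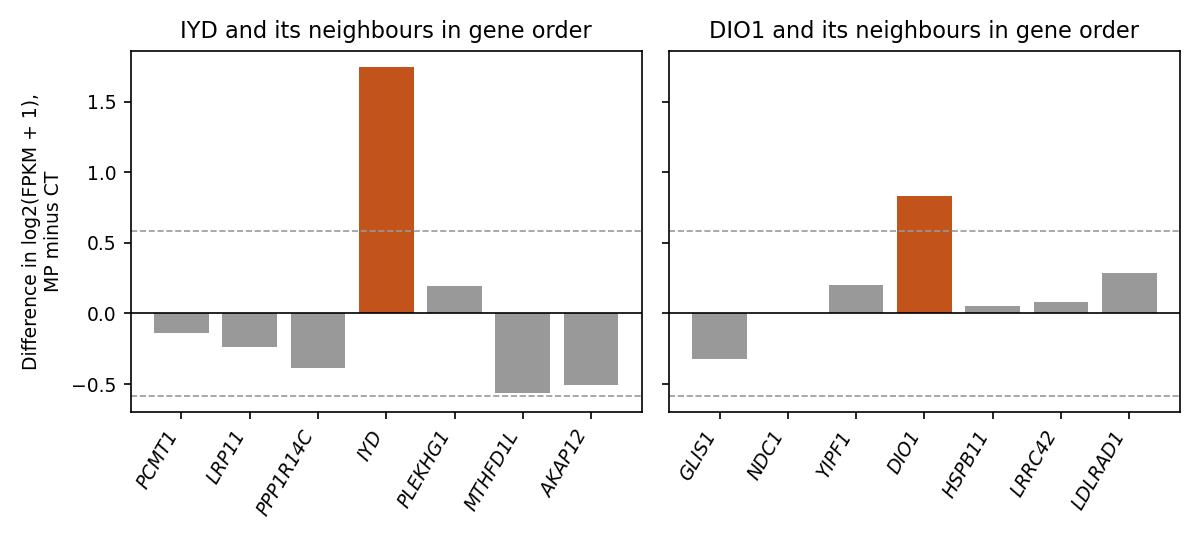
Difference in log2(FPKM + 1), MP minus CT, of IYD (left) and DIO1 (right) and of the 3 protein-coding genes on each side in RefSeq gene order; bars start at 0 and dashed lines mark 1.5-fold. IYD at 1.74 and DIO1 at 0.83 are the only bars in these panels beyond a dashed line. GLIS1 and LDLRAD1 lie below a mean of 1 FPKM, where this scale understates differences.

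Genes with a symbol whose pair of levels lay nearest to that of IYD were sought in the plane of log2(FPKM + 1) in MP and in CT. Over these 2 group means the nearest were IL8, which the table describes as interleukin 8-like 2, with FPKM 6.41 in MP and 1.22 in CT, and the chemokine CCAH221 with 6.12 and 1.45. Then came CASP14, a caspase, with 5.65 in MP and 1.25 in CT, and ACOT12, an acyl-CoA thioesterase, with 5.01 and 1.76. DIPK1B was the last of the 5, at 4.70 in MP and 1.93 in CT. The distances were between 0.09 for IL8 and 0.56 for DIPK1B. Nearness in 2 values is weak likeness.

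DIO1 (ENSGALG00000010736), the type 1 deiodinase, can act on either ring of thyroxine and is best known from liver and kidney. It had FPKM 15.2 in MP and 8.11 in CT, with mean counts of 166 and 95.7 reads per library. The difference was 0.83 on the log2(FPKM + 1) scale, rank 151 from the top among 12633 genes. Scaled to depth, the counts gave a ratio of 1.87 (counting interval 1.61 to 2.17), so the whole interval lay above 1.5. Genes near it in the plane of both levels were TRAPPC5 with 14.3 in MP and 8.86 in CT, and AP1M2, an adaptor subunit of epithelial cells, with 15.5 and 9.04.

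DIO2 (ENSGALG00000026005), the type 2 deiodinase, makes triiodothyronine inside the cell by outer ring deiodination. It had FPKM 3.49 in MP and 3.41 in CT. With 339 and 358 reads per library its count ratio was 1.02, and the counting interval of 0.936 to 1.11 takes in equality. The difference of 0.03 on the log2(FPKM + 1) scale turned to -0.02 with equal FPKM totals, so no direction is given. Per transcript length, DIO1 stood at 4.35 times the DIO2 level in MP and 2.38 times in CT. IYD stood at 1.93 times the DIO2 level in MP and 0.386 times in CT.

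**Figure D3:**
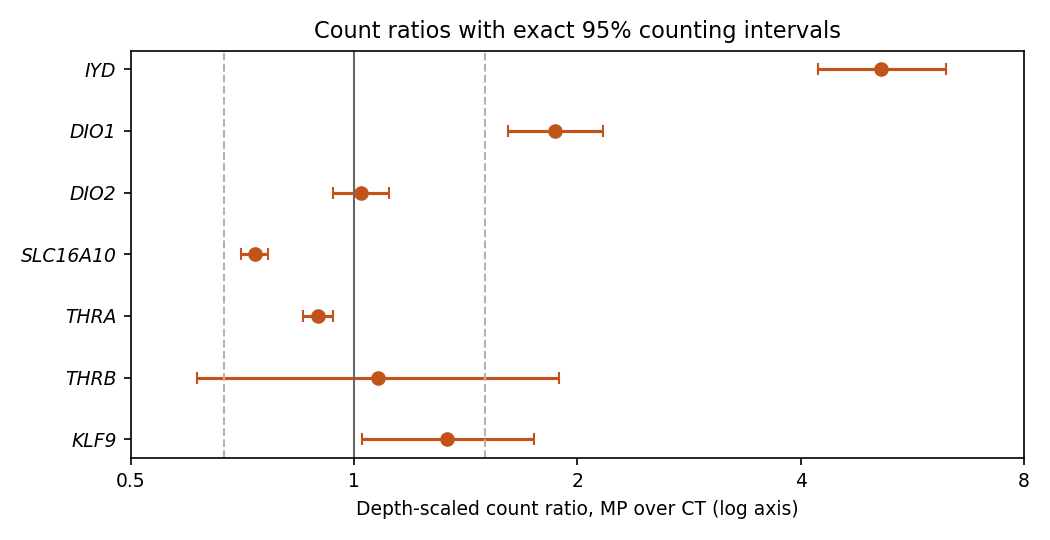
Depth-scaled count ratio of MP over CT on a log axis for each gene, as a point with its exact 95% counting interval; the solid line marks a ratio of 1 and dashed lines 1.5-fold either way. The intervals of IYD and DIO1 lie beyond 1.5-fold, that of SLC16A10 lies between 0.704 and 0.766, and that of THRB runs from 0.615 to 1.89.

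Selenoproteins and the factors of selenocysteine insertion, on which the deiodinases depend, lay close to CT by their median. DIO1 and DIO2 are on this list. Of 29 listed selenoproteins and insertion factors 23 were analysed, all at the minimum. Of these 2 were at least 1.5-fold higher, DIO1 and the intestinal glutathione peroxidase GPX2 (43.7 in MP and 24.2 in CT, an assembled locus), and 0 were lower. Of all genes 2.68% were higher and 1.81% lower by as much. The list median was 0.003, against -0.07 for all genes. Above CT were 14 of the 23 as deposited, beside 37.5% of all genes. With median-of-ratios scaling 17 were above CT, and with equal FPKM totals 9. Without DIO1 and DIO2 the median of the other 21 genes was 0.001, with 12 above CT and 9 below as deposited. Among the abundant members, GPX1 had 150 in MP and 172 in CT, and SELENOT had 104 in both. The elongation factor EEFSEC, chosen after its values were seen, had 11.8 in MP and 11.2 in CT. In the annotation of the table, 6 genes serve selenocysteine insertion, EEFSEC among them. Of these 2 were above and 4 below CT as deposited, but 4 above and 2 below with median-of-ratios scaling. As deposited 0 lay beyond 1.5-fold and the median was -0.05.

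SLC16A10 (ENSGALG00000015040) is a facilitative carrier of aromatic amino acids that also takes thyroid hormones across the membrane. It had FPKM 27.3 in MP and 36.8 in CT, with 1227 and 1799 reads per library. Its difference was -0.42 on the log2(FPKM + 1) scale, rank 715 from the bottom among 12633 genes. The counts gave a ratio of 0.735 (counting interval 0.704 to 0.766). The difference did not reach 1.5-fold under any alternative tried, where it lay between -0.48 and -0.34. Its nearest genes by both levels were LMNB2 (26.8 in MP and 35.9 in CT), XPO1 (27.8 and 35.8) and CADM3 (28.1 and 37.5).

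Other carriers of thyroid hormone lay on either side of CT. Of 13 listed transporters 8 were analysed and 5, SLC16A10 among them, reached the minimum. Beyond 1.5-fold lay 0 in either direction, beside 2.68% of all genes on the higher side and 1.81% on the lower. Without SLC16A10, 3 of 4 were above CT and the median was 0.15, against 37.5% and -0.07 for all genes. The organic anion transporter SLCO2B1 had FPKM 34.0 in MP and 41.5 in CT, and SLCO4A1 had 21.4 and 15.9. The amino acid transporter SLC7A5 had 9.75 in MP and 9.20 in CT.

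Within the SLC16 family of monocarboxylate transporters, 8 of 12 analysed genes reached the minimum. Of these 8 genes 1 was at least 1.5-fold lower and 0 were higher, beside 1.81% and 2.68% of all genes. The list median was -0.24. The lower gene was SLC16A4, at FPKM 2.68 in MP and 4.85 in CT. SLC16A5, the most abundant member, had 32.1 in MP and 37.7 in CT, and SLC16A9, a carnitine carrier, had 23.9 and 28.6. The lactate and butyrate carrier SLC16A1 had 12.9 in MP and 14.3 in CT. In all, 6 of the 8 were below CT, beside 62.4% of all genes. Without SLC16A10, 5 of 7 were below CT and the median was -0.23, against -0.07 for all genes.

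Genes that bind, sulfate or glucuronidate the hormone lay on either side of CT. Of 13 listed genes 8 were analysed and 6 reached the minimum, 3 above and 3 below CT, with a median of -0.08. Beyond 1.5-fold lay 0, beside 2.68% of all genes on the higher side and 1.81% on the lower. The sulfotransferase SULT1C3, the most abundant of them, had FPKM 225 in MP and 312 in CT (-0.47 on the log2(FPKM + 1) scale, a count ratio of 0.726 with an interval of 0.712 to 0.740), and the sulfotransferase row named SULT1B had 104 and 121. The glucuronosyltransferase UGT1A1 had 129 in MP and 123 in CT. Sulfotransferase genes are close copies of each other and the counting could split their reads. The table's own annotation for thyroid hormone metabolism, a list taken up after the file was seen, holds 7 genes at the minimum. Of these 3 were at least 1.5-fold higher and 0 lower, beside 2.68% and 1.81% of all genes. The 3 were IYD, which was picked for this contrast, DIO1 and GCNT4. GCNT4, a glycosyltransferase, had 13.4 in MP and 7.43 in CT. Without IYD, DIO1 and DIO2, 3 of 4 genes were above CT and the median was 0.23, against 37.5% and -0.07 for all genes.

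THRA (ENSGALG00000040017), the receptor alpha, was the most abundant of the 7 genes. It had FPKM 44.2 in MP and 50.3 in CT, with 1140 and 1374 reads per library. The difference of -0.18 on the log2(FPKM + 1) scale lay within the quartiles of all genes, -0.20 and 0.09. The counts gave a ratio of 0.893 (counting interval 0.853 to 0.935), a small difference that counting error alone does not span. Its size depends on the scaling: the median of all genes was -0.07, and with median-of-ratios scaling the difference of THRA was -0.11. RAD23B (43.7 in MP and 49.7 in CT) and C25H1ORF43 (43.8 and 49.4) were among the genes with the most similar pair of levels.

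THRB (ENSGALG00000011294), the receptor beta, was scarce. It had FPKM 0.403 in MP and 0.383 in CT, from 28 reads in each group over 3 libraries. The count ratio was 1.08 with an interval of 0.615 to 1.89, so a difference of 1.5-fold either way was not detectable at this depth. The alpha to beta ratio in FPKM was 110 in MP and 131 in CT. In GRCg7b a long noncoding gene overlaps THRB, and no strand setting is given in the sources used here.

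Among the nuclear receptors of the group that holds THRA and THRB, 14 of 16 analysed genes reached the minimum, 12 of them below CT beside 62.4% of all genes, with a median of -0.19. Of these 14 genes 1 was at least 1.5-fold higher and 2 were lower, beside 2.68% and 1.81% of all genes. The lower ones were the heme-binding repressors NR1D1 (2.59 in MP and 4.65 in CT) and NR1D2 (33.3 and 53.2). These are the genes next to THRA and next to THRB in the RefSeq order, on separate chromosomes. With median-of-ratios scaling 1 gene was past 1.5-fold on the lower side and 11 of 14 were below CT.

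Receptor partners and coregulators lay slightly below CT as a list. All 12 analysed of 17 listed genes reached the minimum, 10 of them below CT, as were 62.4% of all genes. The median was -0.20 against -0.07 for all genes. Beyond 1.5-fold lay 0, beside 2.68% of all genes on the higher side and 1.81% on the lower. With equal FPKM totals all 12 were below CT. TBL1X, a subunit of the corepressor complex, had FPKM 38.0 in MP and 44.9 in CT, and the coactivator NCOA1 had 35.7 and 38.1. The retinoid X receptor RXRA had 34.1 in MP and 32.9 in CT, and the acetyltransferase EP300 had 25.3 and 33.4. In the annotation of the table, 14 genes bind the receptor, with 0 beyond 1.5-fold and a median of -0.07, the same as for all genes.

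**Figure D4:**
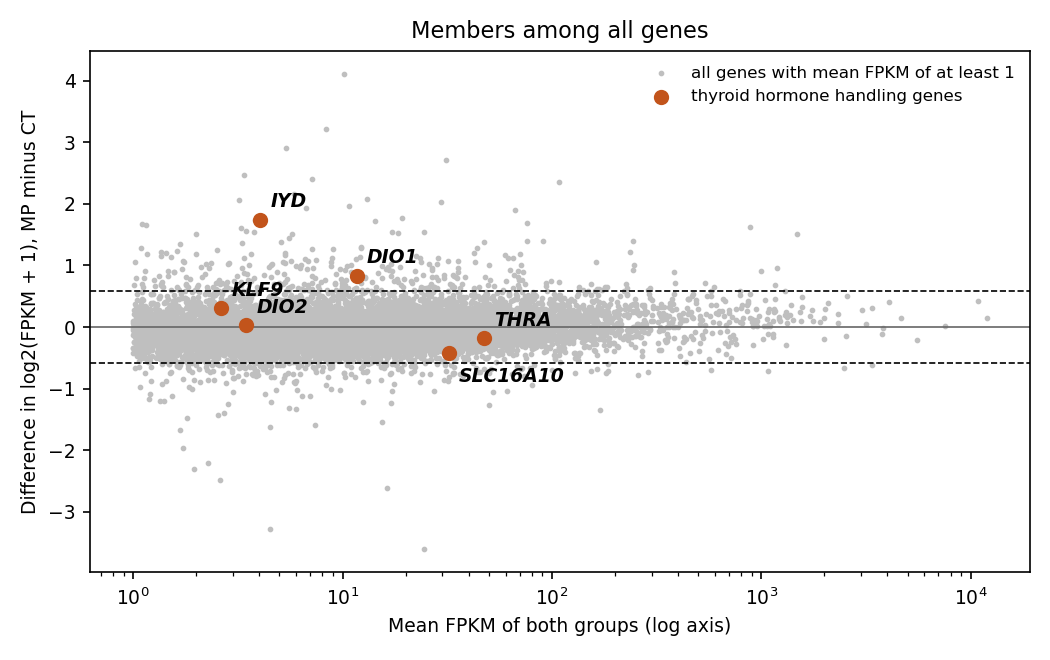
Difference in log2(FPKM + 1), MP minus CT, against the mean FPKM of both groups on a log axis for the 12633 genes with a mean of at least 1 (grey) and the 6 thyroid hormone genes among them; dashed lines mark 1.5-fold. IYD and DIO1 lie above the upper dashed line, and THRA and DIO2 lie within the bulk of genes.

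KLF9 (ENSGALG00000027374) is a zinc finger repressor whose gene is switched on directly by thyroid hormone and by glucocorticoids, in frogs and mammals. It had FPKM 3.02 in MP and 2.26 in CT, from 43 and 34.7 reads per library. The difference was 0.30 on the log2(FPKM + 1) scale, rank 1137 from the top. For its counts the ratio was 1.34, and the counting interval of 1.02 to 1.75 spans values close to equality and values past 1.5. In GRCg7b another protein-coding locus overlaps KLF9, so that reads of both could have been counted together. SH3TC2, at 3.06 in MP and 2.27 in CT, had the nearest pair of levels, followed by WDR31 (3.14 and 2.13) and ISOC2 (2.98 and 2.47).

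The other genes of the KLF family lay close to CT. All 12 analysed of 17, KLF9 included, reached the minimum, and KLF9 had the highest difference of the 12 as deposited. Beyond 1.5-fold lay 0, beside 2.68% of all genes on the higher side and 1.81% on the lower. The median of the 11 others was -0.09, against -0.07 for all genes. Of the 12, 9 were below CT as deposited, beside 62.4% of all genes. With median-of-ratios scaling 6 of 12 were below CT, and with equal FPKM totals 11 of 12. KLF10 had FPKM 64.4 in MP and 70.6 in CT, KLF2 had 42.0 and 45.4, and the crypt factor KLF5 had 36.4 and 39.4. Of 9 glucocorticoid-responsive genes at the minimum, KLF9 among them, 1 was at least 1.5-fold higher and 0 lower, beside 2.68% and 1.81% of all genes. The list median was 0.08, and 0.07 without KLF9, against -0.07 for all genes. The higher gene was ZBTB16, at 12.4 in MP and 7.44 in CT. TSC22D3 had 113 in MP and 115 in CT, and the glucocorticoid receptor NR3C1, chosen after its values were seen, had 4.86 and 6.07.

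Genes known to respond to triiodothyronine (T3) in chicken liver cells, in frog gut or in mammals lay mostly below CT as deposited. Of 19 listed 15 were analysed and 14 reached the minimum, with a median of -0.11. Of the 14, 10 were below CT as deposited and 8 with median-of-ratios scaling, beside 62.4% of all genes as deposited. Without DIO1 and KLF9, 10 of 12 were below CT and the median was -0.18, against -0.07 for all genes. Of the 14 genes 1 was at least 1.5-fold higher, DIO1, and 3 were lower, beside 2.68% and 1.81% of all genes. The lower ones, THRSP, ME1 and SCD, have roles in fat synthesis. ACACA, ACLY and FASN, core enzymes of that pathway on the same list, lay between the 1.5-fold limits. ACACA, the carboxylase, had FPKM 14.0 in MP and 14.1 in CT, ACLY, which supplies acetyl-CoA, had 22.3 and 23.7, and the fatty acid synthase FASN had 9.51 and 11.3. These 3 were chosen after their values were seen. THRSP, a thyroid hormone responsive regulator of lipogenesis, had FPKM 28.9 in MP and 71.3 in CT, a count ratio of 0.418 (counting interval 0.390 to 0.447). Malic enzyme ME1, which supplies NADPH for fatty acids, had 11.9 in MP and 23.4 in CT, a ratio of 0.521 (0.486 to 0.558). The desaturase SCD had 3.31 in MP and 6.99 in CT, a ratio of 0.484 (0.445 to 0.526).

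Markers of fat cells were also lower in MP. With 1 mean per group, whether they vary together with THRSP, ME1 and SCD cannot be seen. All 6 fat cell markers were lower in MP, as were 62.4% of all genes, and their summed FPKM was 234 in MP and 343 in CT. Of the 6 markers 2 were lower by at least 1.5-fold, beside 1.81% of all genes. FABP4 had 95.3 in MP and 161 in CT, and PLIN1, which coats lipid droplets, had 24.9 and 42.4. Their part in the lower THRSP, ME1 and SCD was not tested. All other genes of the T3 list at the minimum, apart from DIO1, lay between the 1.5-fold limits. PCK1, of gluconeogenesis, had FPKM 171 in MP and 224 in CT. CPT1A, of fatty acid oxidation, had 81.4 in MP and 89.2 in CT.

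**Figure D5:**
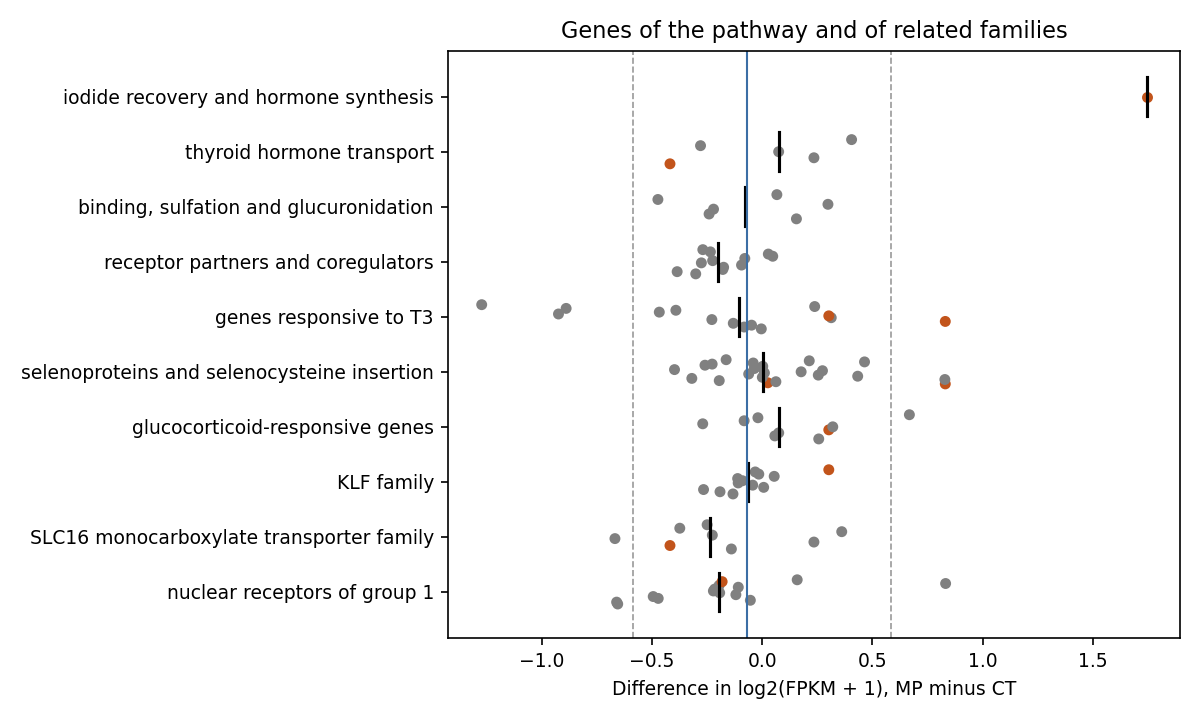
Difference in log2(FPKM + 1), MP minus CT, of each gene with a mean FPKM of at least 1 in 10 lists of the pathway and related families; the genes described in full are in colour, black bars are list medians, the vertical solid line is the median of all genes (-0.07) and dashed lines mark 1.5-fold. Medians of lists with more than 1 gene lie between -0.24 and 0.08, and THRSP, ME1 and SCD stand apart on the lower side of the T3 list.

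Stromal markers were lower in MP as well, beside the lower SLC16A10 and THRA. Of all genes 62.4% were below CT, and 1.81% were lower by at least 1.5-fold. The 7 smooth muscle markers were all lower, with a median of -0.44 and summed FPKM of 2309 in MP and 3427 in CT, 2 of them by at least 1.5-fold (ACTG2, at 816 and 1336, and CNN1, at 135 and 227). The 8 fibroblast and matrix markers were all lower, with a median of -0.51 and sums of 935 in MP and 1258 in CT, 1 of them by at least 1.5-fold (POSTN, at 9.10 and 17.5). Of the 7 analysed markers of enteric neurons and glia, 6 reached the minimum, all below CT as deposited and 3 of 6 with median-of-ratios scaling (median -0.15, sums of 34.3 in MP and 39.7 in CT). Enterocyte markers went both ways, with a median of 0.02, 2 of 8 at least 1.5-fold lower, 1 with median-of-ratios scaling (FABP6 and the peptide carrier SLC15A1, the second at 215 in MP and 357 in CT) and sums of 7461 in MP and 8742 in CT. The part of these cell types in the levels of SLC16A10 and THRA was not tested.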

How the data were processed

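Total RNA of ileum was taken with TRIzol, and per the labels' protocols the library kit was one for small RNA, yet the table covers messenger RNA genes. The submitters' processing notes list StringTie 1.3.1, HISAT2, Bowtie2, fastp 0.18.0 and DESeq2 without their roles. For the genome build, the sources used here give nothing. The authors deposited, per the file headers, FPKM and estimated counts as group means; 4 further value columns belong to no sample of this series and were not used. Members and lists were chosen with earlier results of these data known. Where a symbol repeats, the row with the highest mean FPKM was taken.

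Differences are log2(FPKM + 1) in MP minus CT, which understates those of low genes; calls were made at 1.5-fold among 12633 genes with a mean FPKM of at least 1. Each mean count times 3, rounded, gave a group's reads, whose ratio of MP over CT was scaled by the depth ratio (0.929); its 95% interval is exact (Clopper-Pearson, conditional on the sum). It covers counting error only, and PCR reads with no molecular identifiers are not independent. Named were all members, list genes past 1.5-fold or otherwise the 4 most abundant, the markers, and the 5 genes nearest to IYD (3 for others, at the minimum); any other gene, including the genomic neighbours, was chosen after its values were seen. RefSeq GRCg7b served for names and gene order only (7 of 7 members matched). Steps were tested on simulated data (Python 3.11.15, pandas 2.3.3, scipy 1.17.1). A few genes that the naming rule covers are not reported here.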

Additional observations from a re-analysis of the deposited data

How the results depend on the processing

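No paired analysis was possible because only 1 mean per group was deposited; for the same reason no replicate could be left out. Of 70 recomputed differences of single members 67 changed by less than their counting error and 0 turned round a called direction. The 3 others were IYD with a pseudocount of 0.1 (2.27 against 1.74), and THRA (-0.11) and SLC16A10 (-0.34) with median-of-ratios scaling. Part of the 70 could not change. Another minimum, summed rows of a symbol or left-out assembled loci do not touch a member's own difference. Only IYD and DIO1 were called, so only these could count as turned round. Members at least 1.5-fold higher numbered 1 at a minimum mean FPKM of 5, which leaves out IYD and takes the members' median to -0.18 from 0.16 because fewer genes enter, and 1 when called at 2-fold, which leaves IYD alone. Genes called among all genes came to 7.25% with a pseudocount of 0.1 and to 1.10% at 2-fold, against 4.49%; low genes weigh more with the smaller pseudocount. Of those calls 59.6% were on the higher side as deposited, 72.7% with median-of-ratios scaling, 46.4% with equal FPKM totals and 49.2% with a pseudocount of 0.1. Leaving out assembled loci was chosen after seeing the data and changed no member. Depth limits THRB most, with 28 reads in each group.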
